A study of Mus musculus with 12 samples.

Results

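A set of 43 genes of blood vessels, lymphatic vessels and the factors that act on them was followed in poly(A) RNA sequencing of 12 dorsal skin wounds of mice. The members are the listed genes, matched by symbol to the Ensembl mouse identifiers of the count files, and a member was to be dropped below 15 counts summed over all libraries. All 43 of 43 listed genes were kept, out of 54232 genes listed per file, and all 43 were among the 18618 genes that passed the filter on low counts. The animals were male C57BLKS/J mice with the genotype Lepr (db/db), which lack a working leptin receptor and become obese and diabetic, labelled 12.5 weeks old. Each had received a full-thickness punch wound of 6 mm in the back at 12 weeks, and the wound was collected on day 10. The TD group (5 libraries) wore Tegaderm, a transparent film dressing, alone. The strain group (4 libraries) wore a patch with a patch strain of about 30%, and the no-strain group (3 libraries) wore a patch without that strain. No group had unwounded skin, and none came from mice with an intact leptin receptor. The labels do not say which wounds came from different mice, so p-values here measure the spread between these libraries.

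Blood vessels are lined by endothelial cells, which are held together by cadherin and claudin junctions and are guided by growth factors of the VEGF and angiopoietin families through receptor tyrosine kinases on their surface. During the repair of skin, new capillaries grow into the granulation tissue and later regress, and inflamed endothelium displays selectins and immunoglobulin-family adhesion proteins that capture leukocytes. Lymphatic endothelium is set apart by the transcription factor PROX1 and responds mainly to VEGF-C and VEGF-D. Wound healing and vessel growth are impaired in db/db mice.

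Under either patch, most general endothelial genes stood moderately above the TD level, and Lyve1, a hyaluronan receptor of lymphatic endothelium and of some tissue macrophages, stood well below it. In the edgeR quasi-likelihood test, which compares counts between groups and adjusts p over all 18618 genes (threshold 0.05), 15 of the 43 genes were higher and 1 was lower under strain than in TD. Of all genes, 6.2% were called higher and 6.41% lower in that comparison (12.6% in all). Without strain, 17 of the 43 genes were higher and 1 was lower than in TD, where 9.35% of all genes were called higher and 8.4% lower (17.8% in all). Between strain and no strain 0 of the 43 genes passed, as did 0.0% of all genes. The median log2 fold change of the 43 genes was 0.41 with strain and 0.46 without it, both relative to TD, beside medians of 0.02 and 0.00 over all genes tested. Both comparisons use the same 5 TD libraries. All strain libraries lay on the same side of all TD libraries for 17 of the 43 genes (14.6% of all genes), and the same held for 20 genes without strain (26.7% of all genes). With the letter in the sample titles as a covariate, whose meaning the labels do not give, 8 of the 43 passed under strain (798 of all genes), namely Pecam1, Emcn, Esam, Robo4, Ptprb, Plvap, Vcam1 and Lyve1. In that fit Cdh5, Flt1, Tie1, Egfl7, Sox7, Aplnr, Icam1 and Icam2 lost their call under strain, and Ptprb, Angpt2, Aplnr, Selp and Icam2 lost theirs without strain. Without no-strain replicate 3 the 18 calls of the no-strain group fell to 8, those of Pecam1, Cdh5, Emcn, Robo4, Plvap, Icam1, Vcam1 and Lyve1.

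Total counts ran from 20354677 to 25059371 per library, and the lowest count of any of the 43 genes in any library was 29, for Sele. The numbers in the sample titles were 1 to 6 for TD wounds and 7 to 15 for wounds under a patch, so an order of handling that those numbers might reflect and the use of a patch cannot be told apart. Markers of other cell types also differed between the groups. The summed level of 15 skeletal muscle genes was 7059 to 17264 CPM (counts per 1000000 of the scaled library total) in TD, 3306 to 6248 CPM under strain and 4777 to 10260.5 CPM without strain, and of the 14 genes tested 10 were lower than in TD under strain and 4 without strain. The summed level of 10 neutrophil genes was 534 to 1717, 1013 to 8851 and 2511 to 5382 CPM in the same order, with 9 of 10 genes higher under strain and 8 of 10 without strain. Of 7 adipocyte genes 4 were lower under strain and 6 without strain, and none of the muscle, neutrophil or adipocyte markers was at 0 throughout. With the mean of the muscle genes as a covariate, the median log2 fold change of the 43 genes was 0.38 for strain and 0.44 for no strain. Their median standard error rose from 0.168 to 0.325 for strain and from 0.181 to 0.236 for no strain. Under that edgeR fit 0 of the 43 genes (1 of all genes) passed under strain, where 11 had an unadjusted p under 0.05, and 5 (Flt1, Emcn, Plvap, Vcam1 and Lyve1; 681 of all genes) passed without strain. Genes of the other main skin cells were present in all groups: the summed level of 6 basal keratinocyte genes was 5548 to 7251 CPM in TD, 4491 to 10977 CPM under strain and 4405 to 8343 CPM without strain, and that of 8 fibroblast genes was 42508 to 66703, 43323 to 73889 and 54525 to 68593 CPM. In the edgeR test 0 of 8 fibroblast genes passed in either comparison with TD, with 1 and 1 at an unadjusted p under 0.05, and 1 keratinocyte gene was lower under strain and 2 without strain. The part of neutrophil and fat tissue content in the values below was not tested.

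**Figure D1:**
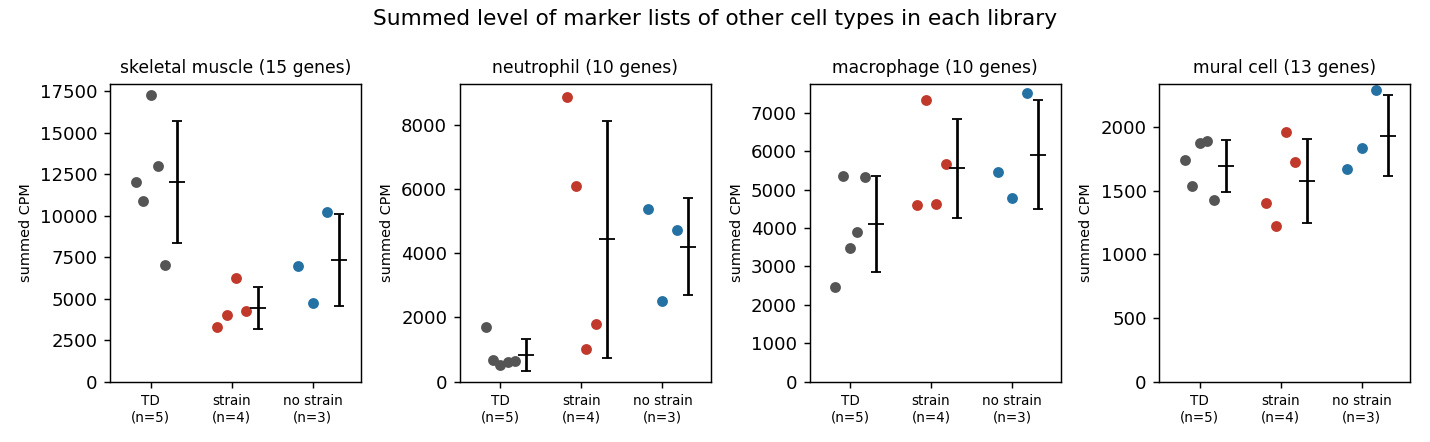
Summed CPM of marker genes of 4 other cell types in each library (points), with group mean and SD (bars) for 5 TD, 4 strain and 3 no-strain libraries. The muscle sum of every strain library lies below that of every TD library, while the macrophage and mural cell sums overlap between the groups.

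Start regions are shown before the single genes, because endothelial genes are known targets of ETS-family factors and the adhesion genes are textbook targets of NF-kB. RefSeq promoter entries (build GRCm38.p6) were matched for 26 of the 43 genes, and the 250 bases before each start were searched on both strands. Below are those of Emcn, where capitals mark the ETS letters CAGGAAG (read here on the opposite strand), and of Icam1, Sele and Selp, where capitals mark the NF-kB letters GGNNNTTCC on either strand.
Emcn: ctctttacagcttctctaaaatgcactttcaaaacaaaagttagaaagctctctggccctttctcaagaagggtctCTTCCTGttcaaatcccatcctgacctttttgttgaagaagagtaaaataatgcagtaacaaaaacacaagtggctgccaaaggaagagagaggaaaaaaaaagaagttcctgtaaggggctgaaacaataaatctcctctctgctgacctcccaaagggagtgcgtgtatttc
Icam1: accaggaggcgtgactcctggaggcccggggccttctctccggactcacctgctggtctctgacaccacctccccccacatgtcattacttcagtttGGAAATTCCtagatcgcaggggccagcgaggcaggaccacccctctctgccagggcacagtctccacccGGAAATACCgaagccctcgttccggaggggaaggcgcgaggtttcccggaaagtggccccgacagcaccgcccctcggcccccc
Sele: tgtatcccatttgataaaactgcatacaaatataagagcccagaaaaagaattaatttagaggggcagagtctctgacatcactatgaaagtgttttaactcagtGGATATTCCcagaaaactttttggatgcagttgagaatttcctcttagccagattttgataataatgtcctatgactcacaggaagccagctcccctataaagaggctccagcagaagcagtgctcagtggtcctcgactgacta
Selp: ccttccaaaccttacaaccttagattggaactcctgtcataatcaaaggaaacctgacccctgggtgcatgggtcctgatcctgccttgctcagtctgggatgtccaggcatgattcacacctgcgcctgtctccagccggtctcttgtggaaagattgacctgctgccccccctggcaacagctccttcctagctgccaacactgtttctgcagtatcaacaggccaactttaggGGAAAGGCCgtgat
These windows lie at chr3:137340828-137341077, chr9:21015690-21015939, chr1:164047984-164048233 and chr1:164115014-164115263, all on the plus strand. The ETS letters (CCGGAAG or CAGGAAG) occurred for 6 of the 26 genes (23.1%) and for 19.0% of all 27025 genes with an entry. The NF-kB letters occurred for 6 of the 26 (23.1%) and 17.6% of all genes. For the SOX letters ACAANG the shares were 38.5% and 39.9%, and for the hypoxia response letters ACGTG they were 7.69%, in Pdpn and Vegfa, and 18.5%. The Vegfa match lies in the window of an entry at chr17:46025164-46025413, inside the annotated span of the gene. Its window at the outer end of the gene, chr17:46032378-46032627, held no match. These shares are descriptions of the letters, and a match does not show binding. Icam1 has 2 matches of the NF-kB letters, Sele and Selp 1 each, and these 3 genes are described with the adhesion genes. The NF-kB letters also occurred for Egfl7, Eng and Mmrn1. The adhesion gene Vcam1 had no entry and was not searched. The window of Sele also holds the ETS letters, in lower case here.

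Levels per length (CPM divided by the exon length in kb, GENCODE M21) spanned a wide range. In TD the highest means were those of Pdpn, a mucin-like protein of lymphatic endothelium that keratinocytes and fibroblasts also make, at 62.0 ± 10.6 CPM per kb (SD, n = 5), and Plvap, which forms the diaphragms of endothelial fenestrae, at 54.4 ± 3.11 CPM per kb. These 2 did not differ beyond their spread. Lyve1 took the third place at 31.0 ± 8.85 CPM per kb, overlapping Cdh5 at 27.2 ± 2.79 and Eng at 25.9 ± 2.37 CPM per kb. The lowest were Sele at 0.953 ± 0.347 and Prox1 at 0.978 ± 0.239 CPM per kb, which did not differ beyond their spread either. In the patch groups Lyve1 fell to place 18 of 43 under strain, at 11.2 ± 2.71 CPM per kb (SD, n = 4), and place 19 without strain, at 11.2 ± 4.93 CPM per kb (SD, n = 3).

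**Figure D2:**
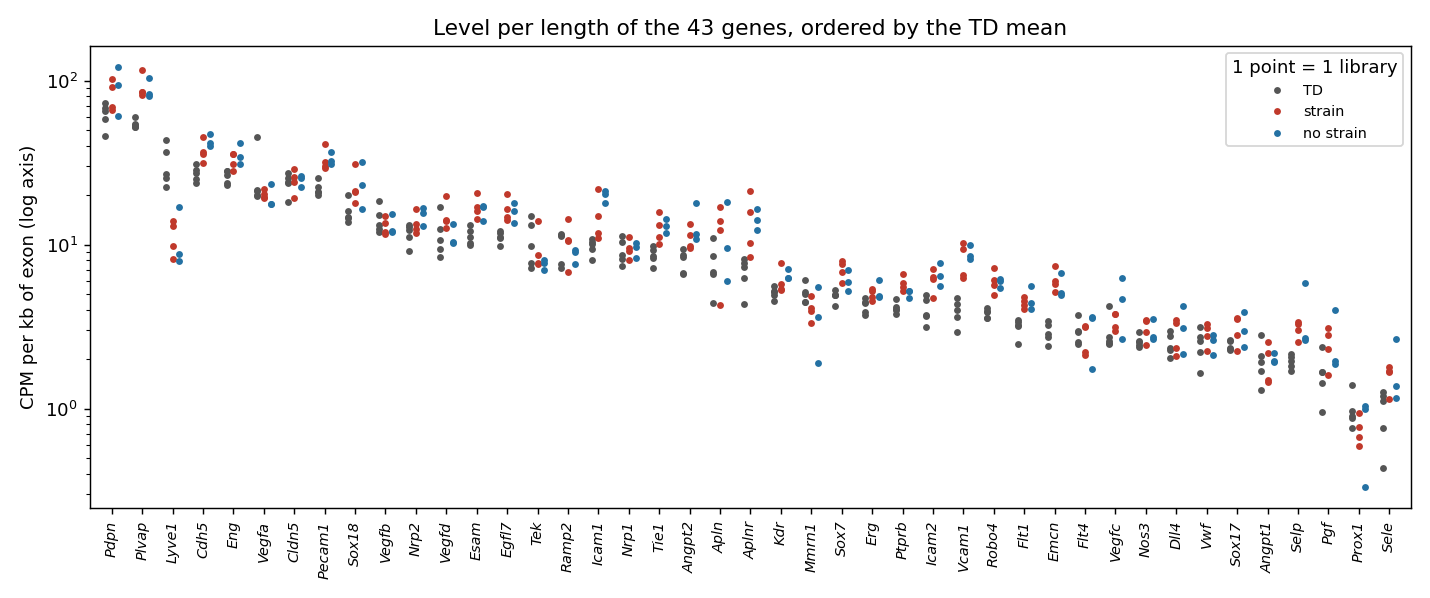
CPM per kb of exon (log axis) of the 43 genes, ordered by the TD mean, with 1 point for each of the 5 TD (grey), 4 strain (red) and 3 no-strain (blue) libraries. Pdpn and Plvap lead in TD, Sele and Prox1 are lowest, and the patch libraries of Lyve1 lie below its TD libraries.

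Among the 14 general endothelial genes of junctions, surface and signalling, 9 were higher under strain than in TD and 10 without strain, and none was lower. Parentheses after a gene give its Ensembl identifier and its position in GRCm38. In bulk tissue, a different number of endothelial cells and a different amount of RNA per endothelial cell cannot be told apart. Pecam1 (ENSMUSG00000020717, chr11:106654217-106750628) had 130.4, 124, 129.7, 140.1 and 159 CPM in TD replicates 1 to 5, 199.9, 183, 189 and 256 CPM in strain replicates 1 to 4, and 203, 194 and 228 CPM in no-strain replicates 1 to 3. Pecam1 encodes the platelet and endothelial adhesion molecule at endothelial cell borders, and all 7 patch libraries were above all 5 TD libraries. Against TD, Pecam1 had log2 fold changes of 0.60 (SE 0.107, edgeR adjusted p = 0.0089) under strain and 0.61 (SE 0.115, edgeR adjusted p = 0.00668) without strain. Cdh5 (ENSMUSG00000031871, chr8:104101625-104144511) had 114, 100.4, 106, 119 and 131 CPM in TD replicates 1 to 5, 151, 133, 154 and 191 CPM in strain replicates 1 to 4, and 175, 167 and 199 CPM in no-strain replicates 1 to 3. Cdh5 encodes VE-cadherin, the main adhesion protein of endothelial adherens junctions, and again every patch library was above every TD library. The log2 fold changes of Cdh5 against TD were 0.46 (SE 0.109, edgeR adjusted p = 0.0222) with strain and 0.66 (SE 0.117, edgeR adjusted p = 0.00517) without. Its call for strain was lost without TD replicate 2 (adjusted p = 0.0537) or TD replicate 3 (adjusted p = 0.0523), and with the title letter as covariate (adjusted p = 0.0773).

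Emcn (ENSMUSG00000054690, chr3:137341067-137432185) had 17.6, 14.8, 13.1, 15.4 and 18.4 CPM in TD replicates 1 to 5, 32.4, 31.2, 27.9 and 40.3 CPM in strain replicates 1 to 4, and 26.8, 27.4 and 36.4 CPM in no-strain replicates 1 to 3. Emcn encodes endomucin, a sialoprotein of capillary and venous endothelium, and showed the largest rise of this group. All patch libraries lay above the highest TD library. Relative to TD, Emcn had log2 fold changes of 1.06 (SE 0.136, edgeR adjusted p = 0.0037) with the strain patch and 0.93 (SE 0.146, edgeR adjusted p = 0.00348) with the no-strain patch. Plvap (ENSMUSG00000034845, chr8:71497765-71511752) had 108, 106, 103, 104 and 119 CPM in TD replicates 1 to 5, 169.7, 162, 169 and 229 CPM in strain replicates 1 to 4, and 160.3, 165 and 207 CPM in no-strain replicates 1 to 3. The TD libraries lay close together and far below both patch groups. For Plvap the fit gave log2 fold changes against TD of 0.76 (SE 0.11, edgeR adjusted p = 0.0048) under strain and 0.72 (SE 0.118, edgeR adjusted p = 0.00399) without it. With the muscle covariate, Emcn and Plvap had log2 fold changes of 0.84 and 0.71 for strain, with edgeR adjusted p of 0.46 and 0.454. For no strain the values were 0.82 and 0.69, with adjusted p of 0.0426 and 0.0432.

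Robo4, an endothelial guidance receptor that stabilises vessels, had 20.2 ± 1.30 CPM in TD, 31.6 ± 4.95 CPM under strain and 31.2 ± 2.08 CPM without strain (SD, n = 5, 4 and 3), without overlap between TD and either patch group. Its log2 fold change against TD was 0.64 (SE 0.0983, edgeR adjusted p = 0.00539) under strain and 0.63 (SE 0.106, edgeR adjusted p = 0.00443) without strain. Esam, an adhesion molecule of endothelial tight junctions, had 32.5 ± 3.81 CPM in TD, 48.7 ± 7.70 CPM under strain and 45.9 ± 5.19 CPM without strain. Against TD, Esam had log2 fold changes of 0.58 (SE 0.116, edgeR adjusted p = 0.0123) under strain and 0.50 (SE 0.126, edgeR adjusted p = 0.0215) without strain. Egfl7, a secreted protein of endothelium whose gene hosts a microRNA, had 40.0 ± 3.15 CPM in TD, 59.0 ± 9.88 CPM under strain and 56.6 ± 7.57 CPM without strain. The log2 fold changes of Egfl7 against TD were 0.56 (SE 0.112, edgeR adjusted p = 0.0125) with strain and 0.50 (SE 0.121, edgeR adjusted p = 0.0179) without. Of these genes Esam and Egfl7 lost the call for no strain without no-strain replicate 1 (adjusted p = 0.0843 and 0.054) or without no-strain replicate 3 (adjusted p = 0.0814 and 0.0838). Egfl7 lost the call for strain with the title letter as covariate (adjusted p = 0.0551). Robo4 kept its calls in each fit that left out 1 library.

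Ptprb, the vascular endothelial phosphatase that restrains angiopoietin receptor signalling, had 54.9 ± 4.46 CPM in TD, 77.3 ± 8.43 CPM under strain and 67.1 ± 3.70 CPM without strain (SD, n = 5, 4 and 3). Relative to TD, Ptprb had log2 fold changes of 0.49 (SE 0.0812, edgeR adjusted p = 0.00716) with the strain patch and 0.29 (SE 0.0881, edgeR adjusted p = 0.043) with the no-strain patch. The call without strain passed in 7 of 19 alternatives only: leaving out TD replicate 1, 2, 3 or 4, strain replicate 1 or any no-strain library ended it (adjusted p from 0.0524 to 0.136). Icam2, a ligand for leukocyte integrins that endothelium carries at rest, had 7.63 ± 1.41 CPM in TD, 11.6 ± 1.90 CPM under strain and 12.5 ± 2.12 CPM without strain. For Icam2 the fit gave log2 fold changes against TD of 0.60 (SE 0.162, edgeR adjusted p = 0.034) under strain and 0.71 (SE 0.174, edgeR adjusted p = 0.0183) without it. Its call for strain was lost without TD replicate 1, 2 or 4 or strain replicate 2, 3 or 4 (adjusted p from 0.061 to 0.0974), and that for no strain without no-strain replicate 3 (adjusted p = 0.0857). Eng, the endothelial co-receptor of BMP and TGF-beta ligands, had 105 ± 9.58 CPM in TD, 132 ± 15.4 CPM under strain and 144 ± 23.0 CPM without strain. In the edgeR fit of all 12 libraries Eng passed for no strain alone. Its log2 fold change against TD was 0.33 (SE 0.107, edgeR adjusted p = 0.063) under strain and 0.46 (SE 0.116, edgeR adjusted p = 0.0217) without strain. Without no-strain replicate 1 or 3 that call was lost (adjusted p = 0.0532 and 0.106).

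The other 4 genes of this group did not pass against TD. Cldn5, the claudin of endothelial tight junctions, had 33.6 ± 4.80 CPM in TD, 34.7 ± 5.59 CPM under strain and 34.9 ± 2.76 CPM without strain (SD, n = 5, 4 and 3), with log2 fold changes of 0.05 and 0.06. Vwf, the clotting glycoprotein stored in endothelial granules, had 39.6 ± 9.21 CPM in TD, 45.8 ± 7.18 CPM under strain and 40.6 ± 5.67 CPM without strain. Nos3, the endothelial nitric oxide synthase, had 10.7 ± 0.922 CPM in TD, 12.6 ± 1.99 CPM under strain and 12.2 ± 1.96 CPM without strain. Ramp2, which pairs with the adrenomedullin receptor, had 32.4 ± 7.30 CPM in TD, 35.0 ± 10.1 CPM under strain and 28.4 ± 2.85 CPM without strain, and 1103 bases of its exons are shared with Vps25. Among junction genes Cdh5 and Esam passed and Cldn5 did not, and the difference between those genes was not tested.

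**Figure D3:**
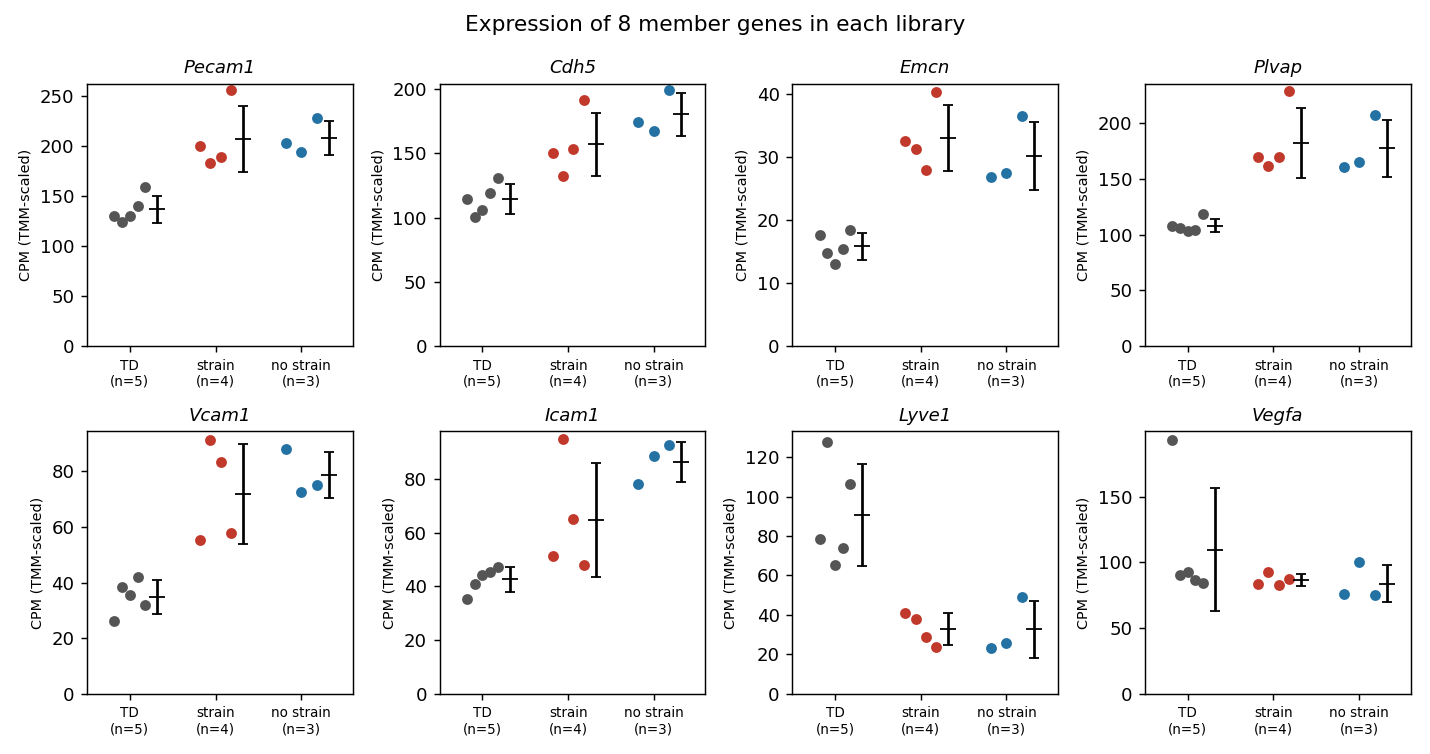
CPM of 8 of the 43 genes in each library (points) with group mean and SD (bars) for 5 TD, 4 strain and 3 no-strain libraries; each vertical axis starts at 0. Pecam1, Cdh5, Emcn, Plvap, Vcam1 and Icam1 are higher in every patch library than in any TD library, Lyve1 is lower in every patch library, and Vegfa has 1 high TD library at 193 CPM.

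The 5 transcription factors of endothelial identity gave 1 call. Sox7 (ENSMUSG00000063060, chr14:63943673-63950732), of the SOX group that drives endothelial fate, had 17.5, 13.8, 16.1, 16.3 and 16.3 CPM in TD replicates 1 to 5, 26.4, 25.3, 19.3 and 22.4 CPM in strain replicates 1 to 4 and 23.1, 19.5 and 17.1 CPM in no-strain replicates 1 to 3. The strain libraries lay above all TD libraries, while 1 no-strain library fell within the TD range. Against TD, Sox7 had log2 fold changes of 0.54 (SE 0.113, edgeR adjusted p = 0.0141) under strain and 0.32 (SE 0.123, edgeR adjusted p = 0.0964) without strain. With the title letter as covariate the call for strain was lost (adjusted p = 0.06). The direct comparison of strain with no strain gave 0.23 (SE 0.13, edgeR adjusted p = 0.881). Sox17, a factor of arterial endothelium, had 11.6 ± 0.756 CPM in TD, 14.5 ± 3.05 CPM under strain and 14.6 ± 3.55 CPM without strain (SD, n = 5, 4 and 3). Sox18, a factor of early lymphatic and blood endothelium, had 25.6 ± 4.10 CPM in TD, 36.9 ± 9.18 CPM under strain and 38.6 ± 12.4 CPM without strain. Erg, the ETS factor that maintains endothelial junction genes, had 14.7 ± 1.46 CPM in TD, 17.2 ± 1.27 CPM under strain and 18.2 ± 2.54 CPM without strain. In the edgeR fit of all 12 libraries Sox18 and Erg passed only when both patch groups were averaged against TD. Their log2 fold changes were 0.56 (SE 0.179, edgeR adjusted p = 0.0421) and 0.27 (SE 0.0888, edgeR adjusted p = 0.048). In that comparison 24.4% of all genes and 22 of the 43 passed (21 higher and 1 lower, against 12.4% and 12.1% of all genes). With both patch groups pooled, the libraries did not overlap with TD for 16 of the 43 genes and for 11.0% of all genes. Sox18 kept that call in 5 and Erg in 4 of 18 alternatives, and leaving out TD replicate 1, 2, 3 or 4 was among those that ended it for both. Sox18 also passed for no strain alone against TD without no-strain replicate 2. Prox1, the lymphatic factor, is given with the lymphatic genes.

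Of the 8 receptors, Flt1, Tie1 and Aplnr were higher than in TD under either patch. Flt1 (ENSMUSG00000029648, chr5:147561604-147726011) had 42.99, 33.3, 43.5, 47.0 and 45.8 CPM in TD replicates 1 to 5, 57.5, 64.4, 61.0 and 54.6 CPM in strain replicates 1 to 4, and 59.4, 54.7 and 75.9 CPM in no-strain replicates 1 to 3. Flt1 encodes a VEGF receptor that binds VEGF-A and placental growth factor and can act as a decoy. The log2 fold changes of Flt1 against TD were 0.48 (SE 0.114, edgeR adjusted p = 0.0219) with strain and 0.57 (SE 0.123, edgeR adjusted p = 0.0108) without. Without strain replicate 2 the call for strain was lost (adjusted p = 0.0752), as was that for no strain without no-strain replicate 3 (adjusted p = 0.0527). With the title letter as covariate the call for strain was also lost (adjusted p = 0.0739). Tie1, the orphan partner of the angiopoietin receptor, had 42.4 ± 4.79 CPM in TD, 61.5 ± 12.4 CPM under strain and 64.1 ± 6.42 CPM without strain (SD, n = 5, 4 and 3). Relative to TD, Tie1 had log2 fold changes of 0.54 (SE 0.129, edgeR adjusted p = 0.0238) with the strain patch and 0.60 (SE 0.139, edgeR adjusted p = 0.0156) with the no-strain patch. Its call for strain was lost without TD replicate 2, 3 or 4 or strain replicate 1 (adjusted p from 0.0522 to 0.0558), and that for no strain without no-strain replicate 3 (adjusted p = 0.0683).

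Aplnr (ENSMUSG00000044338, chr2:85136225-85139923) had 26.9, 23.3, 16.1, 28.4 and 30.4 CPM in TD replicates 1 to 5, 38.0, 30.9, 58.7 and 78.7 CPM in strain replicates 1 to 4, and 45.5, 52.1 and 60.8 CPM in no-strain replicates 1 to 3. Aplnr encodes the apelin receptor, which is found on sprouting and venous endothelium, and its mean was higher under both patches with a wide spread under strain. For Aplnr the fit gave log2 fold changes against TD of 1.04 (SE 0.26, edgeR adjusted p = 0.0272) under strain and 1.08 (SE 0.278, edgeR adjusted p = 0.024) without it. Leaving out TD replicate 2, 3 or 4 or strain replicate 3 or 4 ended the call for strain (adjusted p from 0.0518 to 0.0602). Leaving out TD replicate 2 or no-strain replicate 2 or 3 ended that for no strain (adjusted p from 0.0503 to 0.0882). Kdr, the main signalling receptor for VEGF-A, had 45.8 ± 3.60 CPM in TD, 54.6 ± 10.5 CPM under strain and 59.2 ± 4.59 CPM without strain (SD, n = 5, 4 and 3). Its log2 fold change against TD was 0.25 (SE 0.111, edgeR adjusted p = 0.157) under strain and 0.37 (SE 0.12, edgeR adjusted p = 0.0543) without strain. In the edgeR fit of all 12 libraries Kdr passed only for the mean of both patch groups, at 0.31 (SE 0.0985, edgeR adjusted p = 0.0401). Kdr kept that call in 7 of 18 alternatives, not without TD replicate 1, 2, 3 or 4. For no strain against TD it passed in 3 of 19 alternatives. Flt4, the receptor for VEGF-C and VEGF-D, had 24.1 ± 4.02 CPM in TD, 21.9 ± 4.81 CPM under strain and 24.6 ± 8.89 CPM without strain. Tek, the angiopoietin receptor, had 50.0 ± 16.1 CPM in TD, 44.7 ± 14.1 CPM under strain and 35.9 ± 2.53 CPM without strain. Nrp1 and Nrp2 are co-receptors for VEGFs and semaphorins. Nrp1 had 89.7 ± 15.6 CPM in TD, 92.6 ± 12.6 CPM under strain and 91.9 ± 9.39 CPM without strain. Nrp2 had 138 ± 19.3 CPM in TD, 160.3 ± 24.8 CPM under strain and 178 ± 22.6 CPM without strain, and Flt4, Tek, Nrp1 and Nrp2 did not pass in any comparison.

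The ligands gave 1 call among 9 genes, Angpt2 without strain. Angpt2 (ENSMUSG00000031465, chr8:18690263-18741562) had 24.4, 31.1, 24.9, 31.9 and 34.6 CPM in TD replicates 1 to 5, 36.2, 49.5, 35.0 and 42.4 CPM in strain replicates 1 to 4, and 39.9, 42.7 and 65.9 CPM in no-strain replicates 1 to 3. Angpt2 encodes the angiopoietin released by activated endothelium, which opposes Angpt1, and every patch library exceeded every TD library. Against TD, Angpt2 had log2 fold changes of 0.47 (SE 0.168, edgeR adjusted p = 0.0868) under strain and 0.75 (SE 0.181, edgeR adjusted p = 0.0177) without strain. That call was lost without no-strain replicate 3 (adjusted p = 0.0816) and with the title letter as covariate (adjusted p = 0.0609). Angpt1, the stabilising angiopoietin made by mural and stromal cells, had 10.2 ± 2.93 CPM in TD, 9.98 ± 2.81 CPM under strain and 10.5 ± 0.785 CPM without strain (SD, n = 5, 4 and 3).

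Vegfa (ENSMUSG00000023951, chr17:46016993-46032369) had 193, 90.6, 92.8, 86.4 and 84.6 CPM in TD replicates 1 to 5, 83.7, 92.9, 82.7 and 87.3 CPM in strain replicates 1 to 4, and 76.3, 99.96 and 75.3 CPM in no-strain replicates 1 to 3. Vegfa encodes the main driver of vessel sprouting, which keratinocytes and macrophages of wounds also make. One library, TD replicate 1, was far above the other 11, whose range was 75.3 to 99.96 CPM. The log2 fold changes of Vegfa against TD were -0.34 (SE 0.231, edgeR adjusted p = 0.359) with strain and -0.39 (SE 0.254, edgeR adjusted p = 0.318) without. Without TD replicate 1 the values were -0.03 (SE 0.09, adjusted p = 0.847) and -0.08 (SE 0.0973, adjusted p = 0.618). Vegfb, a VEGF linked to lipid uptake by endothelium, had 22.9 ± 4.29 CPM in TD, 20.9 ± 2.50 CPM under strain and 21.1 ± 3.01 CPM without strain (SD, n = 5, 4 and 3). Vegfc and Vegfd are the lymphatic growth factors. Vegfc had 7.10 ± 1.80 CPM in TD, 8.38 ± 1.03 CPM under strain and 11.1 ± 4.46 CPM without strain. Vegfd had 27.9 ± 8.15 CPM in TD, 36.6 ± 7.63 CPM under strain and 27.3 ± 4.35 CPM without strain. Pgf, placental growth factor, had 4.71 ± 1.505 CPM in TD, 7.11 ± 1.90 CPM under strain and 7.59 ± 3.53 CPM without strain. Apln, the apelin peptide of endothelial tip cells, had 23.4 ± 7.71 CPM in TD, 37.4 ± 17.1 CPM under strain and 35.6 ± 19.9 CPM without strain. Dll4, the Notch ligand of tip cells, had 9.55 ± 1.47 CPM in TD, 10.8 ± 2.66 CPM under strain and 12.1 ± 3.93 CPM without strain. Vegfa passed, as lower, only for the mean of both patch groups with the title letter as covariate, at -0.56 (adjusted p = 0.0439). TD replicate 1 was the only TD library with the letter L, against 3 strain and 2 no-strain libraries. The letter effect within TD in that fit therefore rests on this 1 library. In the edgeR fit of all 12 libraries without covariates none of these 7 genes passed, and their patch and TD libraries overlapped in each case. Vegfc passed, as higher, for no strain without TD replicate 4 or no-strain replicate 1. Without no-strain replicate 1 it also passed for the mean of both patch groups.

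All 4 genes of leukocyte capture had positive log2 fold changes against TD under both patches, and 2 passed for strain and 3 for no strain. Vcam1 (ENSMUSG00000027962, chr3:116109949-116129688) had 26.1, 38.6, 35.6, 42.1 and 32.004 CPM in TD replicates 1 to 5, 55.3, 91.1, 83.4 and 57.9 CPM in strain replicates 1 to 4, and 87.9, 72.5 and 75.1 CPM in no-strain replicates 1 to 3. Vcam1 encodes a ligand for leukocyte integrins that inflamed endothelium and some stromal cells display, and no patch library overlapped TD. Relative to TD, Vcam1 had log2 fold changes of 1.05 (SE 0.171, edgeR adjusted p = 0.00726) with the strain patch and 1.17 (SE 0.183, edgeR adjusted p = 0.00357) with the no-strain patch. With the muscle covariate its values were 1.38 for strain (adjusted p = 0.332) and 1.36 for no strain (adjusted p = 0.022). Icam1 (ENSMUSG00000037405, chr9:21015985-21028817) had 35.3, 40.9, 44.1, 45.3 and 47.3 CPM in TD replicates 1 to 5, 51.2, 94.8, 65.1 and 48.0 CPM in strain replicates 1 to 4, and 78.0, 88.7 and 92.6 CPM in no-strain replicates 1 to 3. Icam1, which leukocytes and keratinocytes also make, was higher in each no-strain library than in any TD library, and the lowest strain library stood just above the highest TD library. For Icam1 the fit gave log2 fold changes against TD of 0.61 (SE 0.176, edgeR adjusted p = 0.0451) under strain and 1.02 (SE 0.188, edgeR adjusted p = 0.00615) without it. The call for strain passed in 4 of 19 alternatives only: leaving out any of the 5 TD or 3 no-strain libraries or strain replicate 2 or 3 ended it, and without strain replicate 2 the log2 fold change was 0.36 (adjusted p = 0.112).

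Selp (ENSMUSG00000026580, chr1:164115264-164150026) had 7.53, 9.53, 8.57, 9.17 and 7.98 CPM in TD replicates 1 to 5, 14.4, 11.2, 13.3 and 14.9 CPM in strain replicates 1 to 4, and 11.6, 12.0 and 25.8 CPM in no-strain replicates 1 to 3. Selp encodes P-selectin, which endothelium and platelets store and release to the surface. Values of both patch groups lay above those of TD, with no-strain replicate 3 far above the others. Its log2 fold change against TD was 0.65 (SE 0.214, edgeR adjusted p = 0.0674) under strain and 0.94 (SE 0.229, edgeR adjusted p = 0.0185) without strain. The call for no strain was lost without that library (log2 fold change 0.46, adjusted p = 0.0555). Sele, E-selectin of inflamed endothelium, had 2.78 ± 1.01 CPM in TD, 4.59 ± 0.846 CPM under strain and 5.04 ± 2.37 CPM without strain (SD, n = 5, 4 and 3). Against TD, Sele had log2 fold changes of 0.72 (SE 0.32, edgeR adjusted p = 0.157) under strain and 0.86 (SE 0.342, edgeR adjusted p = 0.105) without strain. Most neutrophil genes were higher in the same comparisons, as given above. Of 5 platelet markers tested 0 passed in edgeR, with 1 and 2 at an unadjusted p under 0.05, and the summed level of 8 measured ones was 73.5 to 89.3 CPM in TD, 39.2 to 99.97 CPM under strain and 44.8 to 98.0 CPM without strain.

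Lyve1 (ENSMUSG00000030787, chr7:110850607-110863239) had 78.5, 128, 65.4, 74.1 and 106 CPM in TD replicates 1 to 5, 40.7, 37.9, 28.8 and 23.7 CPM in strain replicates 1 to 4, and 23.2, 25.7 and 49.3 CPM in no-strain replicates 1 to 3. Each of the 7 patch libraries was below the lowest TD library. In the edgeR fit it was 2.76-fold lower under strain and 2.76-fold lower without strain. The log2 fold changes of Lyve1 against TD were -1.46 (SE 0.275, edgeR adjusted p = 0.0107) with strain and -1.47 (SE 0.306, edgeR adjusted p = 0.0102) without. With the muscle covariate they were -1.73 (adjusted p = 0.425) and -1.59 (adjusted p = 0.046). Prox1, Mmrn1 and Pdpn did not pass in any comparison in the edgeR fit of all 12 libraries. Pdpn passed, as higher, for no strain and for the mean of both patches without no-strain replicate 1. DESeq2 also called Pdpn for that mean. Mmrn1 passed, as lower, for no strain and for that mean without no-strain replicate 2. Prox1 (ENSMUSG00000010175, chr1:190118035-190170714) had 7.32, 7.60, 6.42, 11.6 and 8.07 CPM in TD replicates 1 to 5, 7.90, 6.44, 5.65 and 4.94 CPM in strain replicates 1 to 4, and 2.79, 8.37 and 8.74 CPM in no-strain replicates 1 to 3. No-strain replicate 1 was the lowest and TD replicate 4 the highest, and the groups overlapped. Relative to TD, Prox1 had log2 fold changes of -0.40 (SE 0.299, edgeR adjusted p = 0.405) with the strain patch and -0.31 (SE 0.326, edgeR adjusted p = 0.548) with the no-strain patch. Mmrn1, a multimerin of lymphatic endothelium and platelets, had 29.6 ± 3.99 CPM in TD, 23.8 ± 3.66 CPM under strain and 21.6 ± 10.7 CPM without strain (SD, n = 5, 4 and 3), and Pdpn had 113 ± 19.2 CPM in TD, 150.0 ± 31.5 CPM under strain and 167 ± 55.2 CPM without strain.

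Since Lyve1 is also made by some tissue macrophages, macrophage genes are given beside it. The summed level of 10 macrophage genes was 2456 to 5347 CPM in TD, 4591 to 7320.3 CPM under strain and 4773 to 7503 CPM without strain, none of the 10 was at 0 throughout, and only Msr1, a scavenger receptor, passed, at 0.85 (SE 0.248, edgeR adjusted p = 0.0465) under strain and 1.09 (SE 0.266, edgeR adjusted p = 0.0189) without it. Mrc1 had 299 ± 101 CPM in TD, 243 ± 46.2 CPM with strain and 246 ± 77.4 CPM without it (SD, n = 5, 4 and 3), with log2 fold changes of -0.30 (SE 0.261, edgeR adjusted p = 0.481) and -0.28 (SE 0.285, edgeR adjusted p = 0.528) against TD. Cd163 had 182 ± 98.6 CPM in TD, 101 ± 67.7 CPM with strain and 57.2 ± 28.8 CPM without it (SD, n = 5, 4 and 3), with log2 fold changes of -0.85 (SE 0.501, edgeR adjusted p = 0.287) and -1.67 (SE 0.575, edgeR adjusted p = 0.0659) against TD. Both are scavenger-type receptors of tissue macrophages, and neither passed. Mrc1 and Cd163 were named after their values were seen. The list as a whole went the other way from Mrc1 and Cd163. The median log2 fold change of all 10 macrophage genes against TD was 0.26 under strain and 0.37 without strain. In edgeR 2 and 6 of the 10 had an unadjusted p under 0.05. Of 18 further lymphatic genes tested, 0 were higher and 1 was lower under strain, and 2 were higher and 3 lower without strain. The medians of their log2 fold changes against TD were 0.03 and 0.02. The shares of all genes were 6.2% higher and 6.41% lower under strain, and 9.35% and 8.4% without strain. Ackr2 had 25.8 ± 8.36 CPM in TD, 11.7 ± 2.28 CPM with strain and 8.12 ± 1.62 CPM without it (SD, n = 5, 4 and 3), with log2 fold changes of -1.14 (SE 0.244, edgeR adjusted p = 0.016) and -1.67 (SE 0.279, edgeR adjusted p = 0.0044) against TD. Ackr2 is a scavenging receptor for chemokines on lymphatic endothelium. Ackr4 had 16.6 ± 4.18 CPM in TD, 7.73 ± 3.97 CPM with strain and 6.36 ± 3.23 CPM without it (SD, n = 5, 4 and 3), with log2 fold changes of -1.10 (SE 0.352, edgeR adjusted p = 0.062) and -1.38 (SE 0.396, edgeR adjusted p = 0.0347) against TD. Ackr4 is another scavenging chemokine receptor of these vessels. Itga9, an integrin of lymphatic valves, and Ccbe1, which helps to activate VEGF-C, were higher without strain, at 0.33 (SE 0.0961, edgeR adjusted p = 0.0344) and 0.75 (SE 0.216, edgeR adjusted p = 0.0351). Ccl21a, a lymphatic chemokine with near-identical copies in the mouse genome, was listed at 0 in all libraries. The part of macrophage content in the Lyve1 difference was not tested.

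**Figure D4:**
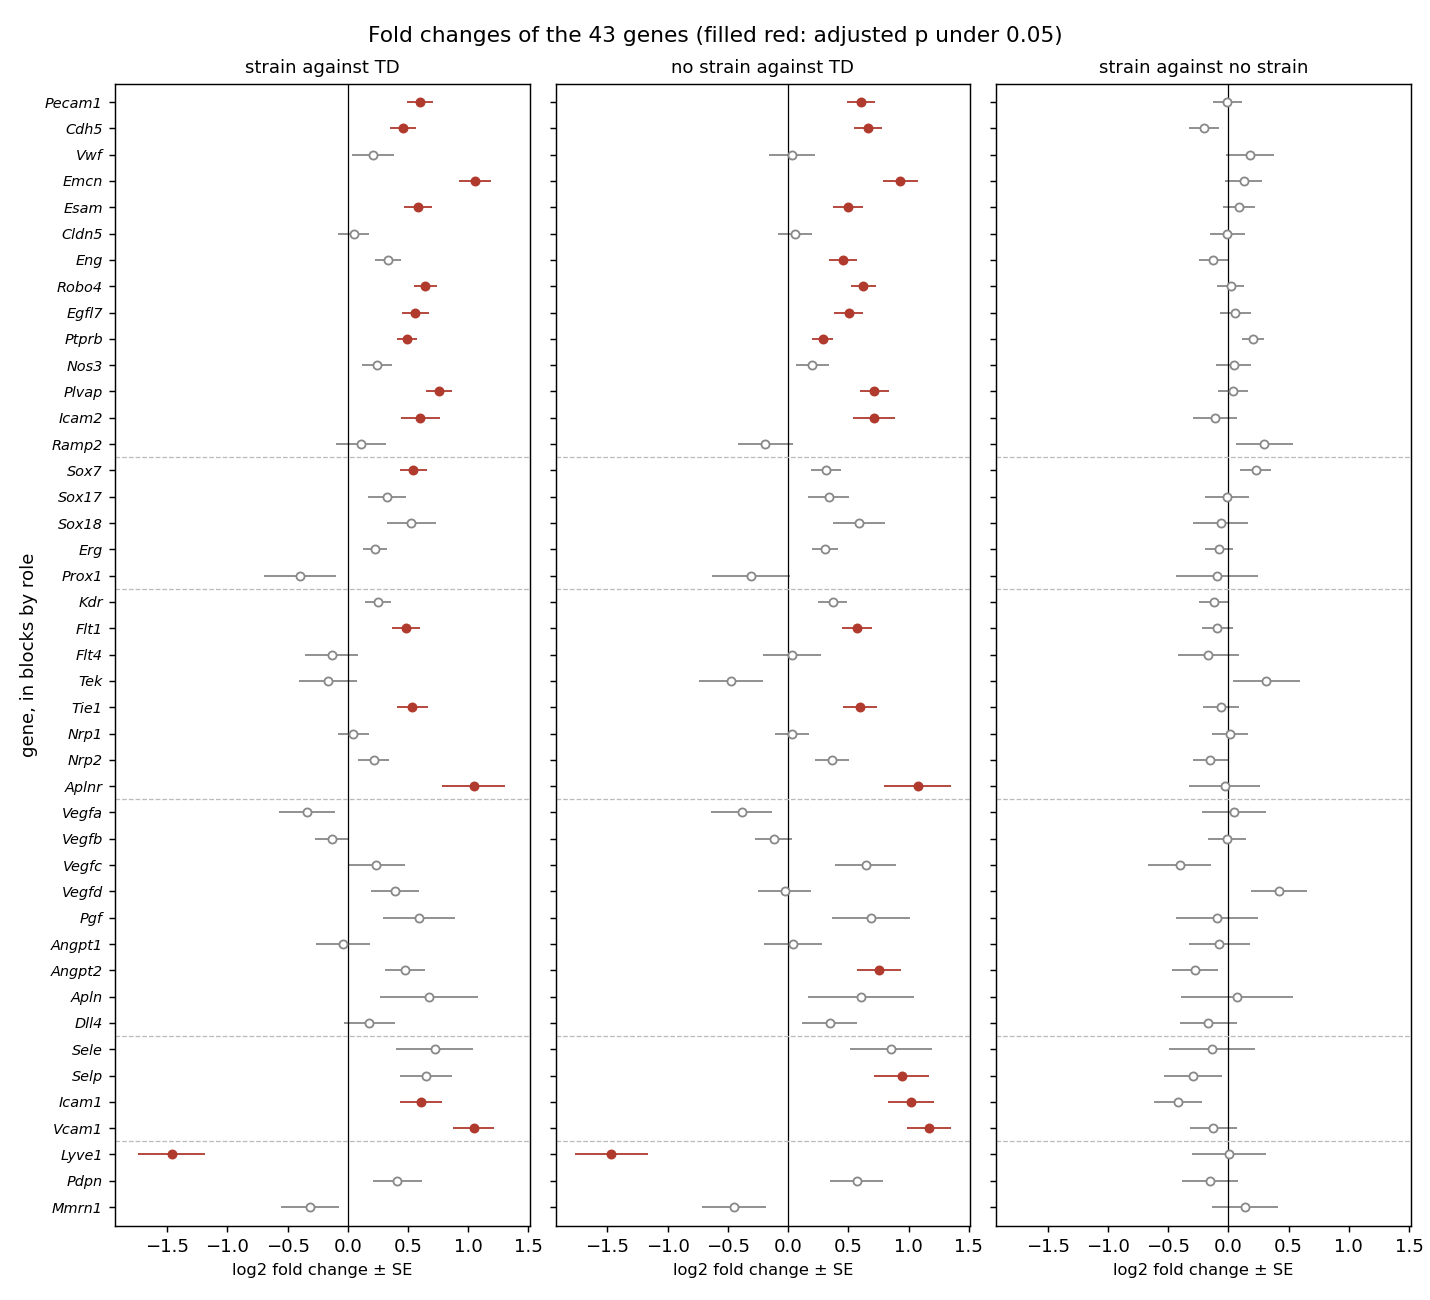
Log2 fold change (horizontal axis, with standard error) of the 43 genes in 3 comparisons, in blocks from general endothelial genes at the top to lymphatic genes at the bottom; filled red points have an edgeR adjusted p under 0.05. Red points number 16 for strain and 18 for no strain relative to TD, and 0 between both patch groups.

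Ratios of member pairs within a library do not depend on how libraries are scaled, and 12 of them were compared between groups by two-sided exact permutation tests, with p adjusted over 36 tests. The smallest p these designs allow is 0.00794 with strain and TD, 0.0179 with no strain and TD and 0.0286 between both patch groups. After adjustment over 36 tests, a single ratio at such a p would not pass on its own. No ratio had an adjusted p under 0.05 (smallest 0.161), and these tests do not show that the ratios were alike. Prox1 relative to Cdh5, a lymphatic factor set against a gene of all endothelium, had a mean log2 ratio of -3.82 ± 0.289 (SD, n = 5) in TD, -4.66 ± 0.463 (SD, n = 4) under strain and -4.93 ± 0.896 (SD, n = 3) without strain. All patch libraries lay below all TD libraries, with differences of -0.84 (exact permutation p = 0.00794, adjusted p = 0.161) and -1.11 (exact permutation p = 0.0179, adjusted p = 0.161). Lyve1 relative to Prox1 differed by -1.06 (exact permutation p = 0.0159, adjusted p = 0.161) for strain and -1.06 (exact permutation p = 0.0714, adjusted p = 0.214) for no strain.

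Plvap relative to Cdh5 was higher in each strain library than in any other library. Its mean log2 ratio was 0.21 ± 0.0688 (SD, n = 4) under strain, -0.0302 ± 0.0897 (SD, n = 3) without strain and -0.0758 ± 0.105 (SD, n = 5) in TD. Strain exceeded TD by 0.29 (exact permutation p = 0.0159, adjusted p = 0.161) and no strain by 0.24 (exact permutation p = 0.0286, adjusted p = 0.206), the latter at the smallest p that design allows, and neither passed after adjustment. Vwf relative to Cdh5 was higher in each strain than in each no-strain library, with a difference of 0.38 (exact permutation p = 0.0571, adjusted p = 0.214). Unlike Plvap/Cdh5, its mean was highest in TD. The mean log2 ratio was -1.78 ± 0.174 (SD, n = 4) under strain, -2.16 ± 0.118 (SD, n = 3) without strain and -1.55 ± 0.411 (SD, n = 5) in TD. Pgf relative to Vegfa differed by 0.87 (exact permutation p = 0.0397, adjusted p = 0.214) for strain against TD. Angpt2 relative to Angpt1 differed by 0.51 (exact permutation p = 0.159, adjusted p = 0.336) for strain and 0.65 (exact permutation p = 0.107, adjusted p = 0.267) for no strain against TD.

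**Figure D5:**
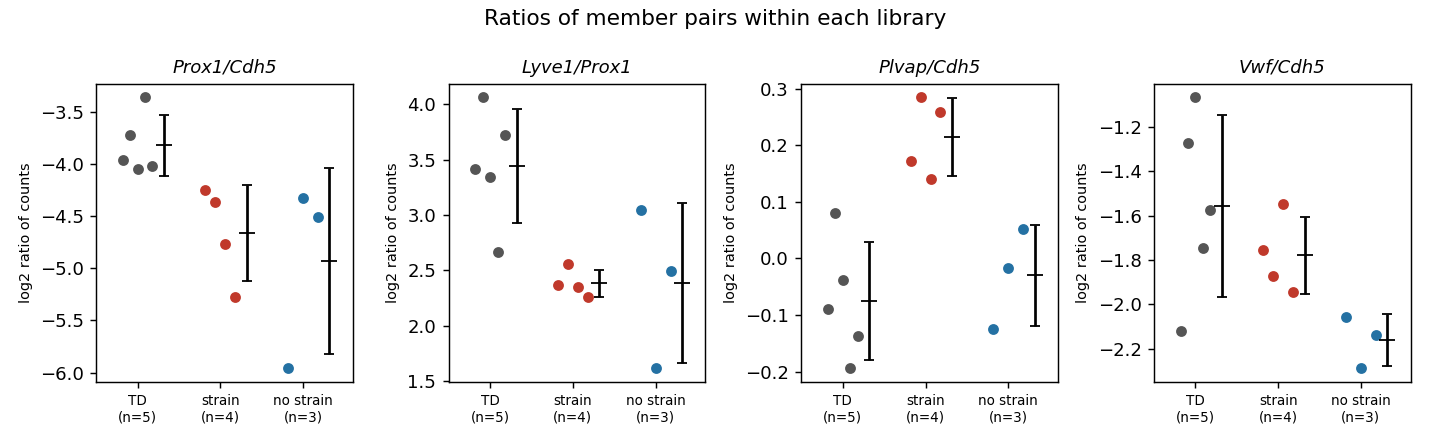
Log2 ratio of the counts of 4 gene pairs within each library (points) with group mean and SD (bars) for 5 TD, 4 strain and 3 no-strain libraries. Prox1/Cdh5 is lower in every patch library than in any TD library, and Plvap/Cdh5 is higher in every strain library than in any other library.

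The direct comparison of strain with no strain sets a patch with strain against a patch without it. None of the muscle, neutrophil or adipocyte markers passed there in edgeR. At an unadjusted p under 0.05 were 6 of 14, 4 of 10 and 5 of 7, beside 5.61% of all genes. The median log2 fold changes of these lists were -0.66, -0.78 and 1.16 in the same order. The part of neutrophil and fat tissue content in this comparison was not tested. Log2 fold changes of the 43 genes ran from -0.42 to 0.42 with a median of -0.03, and standard errors ran from 0.0930 to 0.463. No gene had libraries that did not overlap between the groups, against 5.62% of all genes, and 1 of 43 had an unadjusted p under 0.05, against 5.61% of all genes. DESeq2 also called 0 of the 43, and 25 of all genes. The 2 genes with the smallest p were Ptprb, at 0.20 (SE 0.093, edgeR adjusted p = 0.872), and Icam1, at -0.42 (SE 0.199, edgeR adjusted p = 0.872). The genes with the clearest rise against TD had 0.13 (SE 0.155) for Emcn, 0.04 (SE 0.126) for Plvap and -0.13 (SE 0.194) for Vcam1, and Lyve1 had 0.00 (SE 0.305). These tests do not show that the groups were alike.

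A further 40 genes of endothelial cells outside the 43 were read in the same fit. Under strain 6 were higher and 2 lower than in TD, without strain 9 were higher and 2 lower, and the medians of their log2 fold changes were 0.19 and 0.26. Of all genes 6.2% were called higher and 6.41% lower under strain, and 9.35% and 8.4% without strain. Ecscr had 19.2 ± 2.56 CPM in TD, 30.1 ± 3.02 CPM with strain and 34.1 ± 7.86 CPM without it (SD, n = 5, 4 and 3), with log2 fold changes of 0.65 (SE 0.141, edgeR adjusted p = 0.0161) and 0.83 (SE 0.151, edgeR adjusted p = 0.0058) against TD. Aqp1 had 159 ± 6.36 CPM in TD, 243 ± 55.2 CPM with strain and 188 ± 28.5 CPM without it (SD, n = 5, 4 and 3), with log2 fold changes of 0.62 (SE 0.137, edgeR adjusted p = 0.0171) and 0.24 (SE 0.149, edgeR adjusted p = 0.278) against TD. Ets1 had 68.5 ± 7.31 CPM in TD, 92.9 ± 5.16 CPM with strain and 97.7 ± 11.0 CPM without it (SD, n = 5, 4 and 3), with log2 fold changes of 0.44 (SE 0.0876, edgeR adjusted p = 0.0123) and 0.51 (SE 0.0946, edgeR adjusted p = 0.00605) against TD. Ecscr is a surface protein of endothelium, Aqp1 is a water channel of endothelium and red cells, and Ets1 is an ETS factor of activated endothelium and lymphocytes. Slco2a1 had 71.2 ± 6.79 CPM in TD, 40.5 ± 6.06 CPM with strain and 40.2 ± 8.16 CPM without it (SD, n = 5, 4 and 3), with log2 fold changes of -0.81 (SE 0.127, edgeR adjusted p = 0.00572) and -0.83 (SE 0.14, edgeR adjusted p = 0.00446) against TD. Cavin2 had 59.8 ± 11.0 CPM in TD, 42.6 ± 2.40 CPM with strain and 34.3 ± 3.20 CPM without it (SD, n = 5, 4 and 3), with log2 fold changes of -0.49 (SE 0.121, edgeR adjusted p = 0.0263) and -0.80 (SE 0.135, edgeR adjusted p = 0.00425) against TD. Slco2a1, a prostaglandin transporter, and Cavin2, a coat protein of caveolae that adipocytes also make, were the 2 genes lower under both patches. Of 23 Notch and guidance genes 1 was higher and 2 lower under strain, and 1 was higher and 4 lower without strain. These counts are to be read beside the shares of all genes just given. Notch4 had 28.6 ± 3.94 CPM in TD, 38.7 ± 5.66 CPM with strain and 37.8 ± 4.05 CPM without it (SD, n = 5, 4 and 3), with log2 fold changes of 0.44 (SE 0.118, edgeR adjusted p = 0.034) and 0.40 (SE 0.128, edgeR adjusted p = 0.0484) against TD, and Notch4 is the Notch receptor of endothelium. Sema3e had 20.5 ± 5.19 CPM in TD, 10.3 ± 1.58 CPM with strain and 7.69 ± 1.41 CPM without it (SD, n = 5, 4 and 3), with log2 fold changes of -0.99 (SE 0.193, edgeR adjusted p = 0.0117) and -1.41 (SE 0.218, edgeR adjusted p = 0.00331) against TD, and Sema3e is a repulsive cue for vessels. The lists were chosen with earlier results of these data known.

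In the annotation, 5 of the genes called against TD share exon bases with another gene: Eng (61 bases with Fpgs), Egfl7 (459), Icam1 (511 with Gm47079), Selp (624) and Vcam1 (61 with Gm43109). Apart from Gm20532 and Mir126a in Egfl7, the partners of these 5 lie on the opposite strand. The strand setting of the counting is not given in the sources used here, so reads of such partners cannot be told apart.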

How the data were processed

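RNA of 12 wounds was sequenced after enrichment on oligo(dT) beads, per the labels' protocols. Each library has a file of whole-number read counts for every gene, neither scaled nor filtered, as deposited by the authors. The submitters' processing notes name bcl2fastq 2.17, FastQC, cutadapt, STAR, featureCounts and DESeq2 and the build GRCm38. Their settings, the annotation release and the handling of reads that match several genes are not given in the sources used here. Groups came from the group label. Symbols, positions and exon lengths came from GENCODE M21 (GRCm38), in which 54165 of 54232 identifiers had a symbol.

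Genes were kept by filterByExpr (minimum count 10, minimum total 15), scaled with edgeR's TMM factors and fitted, all 12 libraries together, with the quasi-likelihood test of edgeR 4.0.16 with robust spread estimates (R 4.3.3, limma 3.58.1). Benjamini-Hochberg adjustment ran over 18618 genes. The standard error is the size of the log2 fold change divided by the square root of F. CPM use TMM-scaled totals. Ratios added 0.5 counts. The fit was also run on simulated counts of independent libraries, which held no difference in cell content, shared mice or handling order. Within groups, 19 pairs of libraries were compared by chi-square, whose value per degree of freedom was 9.53 to 75.0, so no pair was a duplicate. Totals were 20354677 counts or more per library, and every member had at least 29 counts in each.

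Alternatives were DESeq2 1.42.0, its size factors, library totals alone, no filter on low counts, only the groups compared, a covariate (the letter in the titles, or the muscle gene mean), leaving out each library, and 2 counts added in ratios. Members passing in any pairwise comparison, and the 2 with the smallest p for strain against no strain, were given in full; of each further list, up to 3 genes per direction with the smallest p were named, and others named were chosen after their values were seen. The members and lists were chosen with earlier results of these data known. One gene of the lists is not reported here.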

Additional observations from a re-analysis of the deposited data

Results flagged for a closer look

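A library was marked where it stood apart from the rest of its group by Dixon's 95% criterion, in the 5 TD and the 4 strain libraries. Among 110 group values tested (the 43 genes and 12 ratios in both groups), 5 stood apart, and chance marks about 5.5. Vegfa was highest in TD replicate 1, at 7.59 log2 CPM against 6.54 in the next TD library. Vegfc was highest in TD replicate 4, at 3.38 against 2.75 log2 CPM. Plvap was highest in TD replicate 5, at 6.89 against 6.75 log2 CPM, and in strain replicate 4, at 7.84 against 7.41 log2 CPM. Flt1 was lowest in TD replicate 2, at 5.06 against 5.43 log2 CPM. The number of marked values is near the number that chance gives. Groups of 3 were not tested.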

How the results depend on the processing

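Of the 43 genes, the count past the threshold stayed at 0 for strain against no strain in each alternative. For strain against TD (16 genes) it fell to 8 with the title letter and to 0 with the muscle genes as a covariate. For no strain against TD (18 genes) it fell to 5, and for both patches (22 genes) to 0, with the muscle covariate. Across the fits that each left out 1 library it ran 11 to 18 for strain against TD, 8 to 19 for no strain against TD (lowest without no-strain replicate 3) and 19 to 22 for both patches. Other alternatives kept these counts within 1.5 times. Over all genes, strain against TD gave 1527 without a filter on low counts, 798 with the title letter and 1 with the muscle covariate. No strain against TD gave 2145 and 681, and both patches 2589 and 74, with those covariates. DESeq2 gave 25 genes for strain against no strain, against 0. Without 1 library there were 882 to 2458, 1505 to 3415 and 3176 to 4570 genes in the same order, and the counts moved by over 1.5 times without TD replicate 2 (1426), 3 (1301) or 4 (1274) or strain replicate 2 (882) for strain against TD, and without no-strain replicate 1 (1668) or 3 (1505) for no strain against TD. No member called against TD changed direction in any alternative. With 1 library of the compared groups left out, the exact test of strain against no strain allows no p under 0.05, so no call was possible there. Against TD the smallest p that test allows is then larger than with all libraries. Ratio differences that changed sign when 1 library was left out had no call in any fit. For strain against no strain their ranges were -0.347 to 0.0229 (Angpt2/Angpt1), -0.11 to 0.218 (Flt1/Kdr), -0.389 to 0.328 (Lyve1/Prox1), -0.427 to 0.324 (Pgf/Vegfa), -0.246 to 0.574 (Prox1/Cdh5), -0.0647 to 0.438 (Sele/Cdh5) and -0.147 to 0.247 (Vcam1/Cdh5). Against TD they were -0.219 to 0.161 (Icam1/Icam2, strain), -0.34 to 0.00535 (Vegfc/Vegfd, strain) and -0.11 to 0.412 (Sele/Cdh5, no strain). For all of these shifts the cause was not tested. No paired analysis was possible because the title numbers of the groups do not recur. Scaling by library totals moved the median of all genes by -0.06 for no strain against TD.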

Other observations

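Mural cells, which wrap capillaries and small vessels, were read from 13 marker genes. Their summed level was 1425 to 1889 CPM in TD, 1220.1 to 1957 CPM under strain and 1670.2 to 2285 CPM without strain. In each comparison with TD, 1 gene was higher and 1 lower of 13 tested. The shares of all genes were 6.2% higher and 6.41% lower under strain, and 9.35% and 8.4% without strain. Rgs5 had 163 ± 23.4 CPM in TD, 248 ± 53.4 CPM with strain and 244 ± 0.988 CPM without it (SD, n = 5, 4 and 3), with log2 fold changes of 0.60 (SE 0.136, edgeR adjusted p = 0.0181) and 0.58 (SE 0.146, edgeR adjusted p = 0.0209) against TD. Cspg4 had 39.4 ± 4.18 CPM in TD, 26.4 ± 1.95 CPM with strain and 22.7 ± 1.15 CPM without it (SD, n = 5, 4 and 3), with log2 fold changes of -0.58 (SE 0.0836, edgeR adjusted p = 0.00462) and -0.80 (SE 0.0927, edgeR adjusted p = 0.00122) against TD. Rgs5 and Cspg4 both mark pericytes, and here they moved in opposite directions.

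Among 26 tested genes that inhibit or modulate vessel growth, 1 was higher under strain and 4 without strain, and 0 were lower. Of all genes, 6.2% under strain and 9.35% without strain were called higher, and 6.41% and 8.4% lower. Hif1a had 202 ± 24.3 CPM in TD, 348 ± 62.1 CPM with strain and 398 ± 58.6 CPM without it (SD, n = 5, 4 and 3), with log2 fold changes of 0.78 (SE 0.133, edgeR adjusted p = 0.00768) and 0.98 (SE 0.143, edgeR adjusted p = 0.00272) against TD. Epas1 had 149 ± 15.1 CPM in TD, 178 ± 9.75 CPM with strain and 235 ± 63.6 CPM without it (SD, n = 5, 4 and 3), with log2 fold changes of 0.26 (SE 0.129, edgeR adjusted p = 0.197) and 0.66 (SE 0.138, edgeR adjusted p = 0.00988) against TD. Both encode oxygen-regulated transcription factors, whose activity is set mainly by protein stability. Adamts1 had 94.8 ± 10.6 CPM in TD, 122 ± 18.4 CPM with strain and 133 ± 18.7 CPM without it (SD, n = 5, 4 and 3), with log2 fold changes of 0.36 (SE 0.117, edgeR adjusted p = 0.0653) and 0.48 (SE 0.127, edgeR adjusted p = 0.0244) against TD.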
